A study of Mus musculus with 12 samples.

Results

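The 10 genes described here encode receptors, ligands and transcriptional targets of the Notch pathway in mouse quadriceps. They were chosen by gene symbol: 4 receptors (Notch1, Notch2, Notch3 and Notch4), 3 ligands (Jag1, Jag2 and Dll4) and 3 targets (Hes1, Hey1 and Heyl). All 10 were found among the 15344 genes of the expression tables. RNA-Seq of quadriceps came from 12 mice, 4 in each of 3 groups, all on a C57BL/6 background and 6 months old at harvest. Per the labels, the WT group was wild type and received no treatment, and the KO and AAV groups were both knock-outs of GAA, acid alpha-glucosidase, the lysosomal glycogen-degrading enzyme that is deficient in Pompe disease. Animals of the KO group were injected with PBS, and those of the AAV group with AAV2/8-LSPhGAApA at 2e12 vg/kg by tail vein (the dose as the methods give it, since the exponent in the label is ambiguous), a vector whose promoter drives human GAA in the liver and not in muscle. By these labels untreated wild-type animals were set against injected knock-outs, so genotype and injection cannot be told apart in the comparison of KO with WT. The knock-out mice were male per the study's methods, and the sex of the wild-type mice is not given in the sources used here.

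Notch receptors are single-pass membrane proteins activated by ligands of the Jagged and Delta-like families on a neighbouring cell. Ligand binding exposes the receptor to an ADAM protease and then to gamma-secretase, and the released intracellular domain enters the nucleus, binds RBPJ and Mastermind proteins, and switches on repressors of the Hes and Hey families. In muscle tissue the pathway is best known for keeping satellite cells quiescent, for arterial specification of endothelium, where Dll4, Notch1 and Notch4 act, and for maturation of mural cells, where Notch3 and its target Heyl act.

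Total reads per library lay between 22122233 and 47379737, and member genes had between 35 and 1106 reads per library. The targeted gene, Gaa, went against the labels, so groups are named here strictly by label. Its normalised read count, that is reads divided by the library's size factor, was 343, 14640, 324 and 460 in the libraries labelled WT, between 11936 and 13075 in the 4 labelled KO, and 947, 587, 500 and 9854 in those labelled AAV. The library labelled WT 2 and the library labelled AAV 4 thus stood apart from their groups. GAA activity and glycogen of mouse muscle were not analysed here, and whether libraries or groups were exchanged in labelling was not tested. Every direction given below rests on these labels, and the counts of members, of other pathway genes and of vessel markers are also given without these libraries. No source used here says whether libraries were sequenced in batches, and in bulk tissue fewer cells of a type and less RNA per cell cannot be told apart.

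The RefSeq promoters of the receptors are shown because the profiles of some receptors were close across the 12 libraries and those of others less so (Pearson r on log2 values 0.95 for Notch1 with Notch3 and 0.42 for Notch2 with Notch3), a description with no test in libraries that share groups. Each window is the 250 bases before the annotated start (GRCm38.p6), read 5′ to 3′ on the gene's strand. This RefSeq start need not be the start of the GENCODE gene given further on. It lies 12841 bases downstream of it for Notch1, whose window is therefore inside the GENCODE gene, and 11 and 27 bases downstream for Notch2 and Notch4, whose windows end in the first exon. Capitals mark the GC box GGGCGG on either strand, a common binding motif of Sp-family factors.
Notch1 (chr2:26503823-26504072, minus strand): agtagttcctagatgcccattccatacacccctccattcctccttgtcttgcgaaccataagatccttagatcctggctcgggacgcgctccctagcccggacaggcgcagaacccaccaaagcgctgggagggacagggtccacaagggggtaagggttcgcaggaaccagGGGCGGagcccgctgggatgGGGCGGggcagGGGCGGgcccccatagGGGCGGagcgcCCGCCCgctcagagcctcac
Notch2 (chr3:98013288-98013537, plus strand): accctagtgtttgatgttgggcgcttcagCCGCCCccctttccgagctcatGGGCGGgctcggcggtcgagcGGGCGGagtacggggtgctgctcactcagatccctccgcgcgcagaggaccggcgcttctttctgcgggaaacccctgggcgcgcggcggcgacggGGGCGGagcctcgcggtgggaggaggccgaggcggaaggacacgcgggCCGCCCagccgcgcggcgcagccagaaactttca
Notch3 (chr17:32166891-32167140, minus strand): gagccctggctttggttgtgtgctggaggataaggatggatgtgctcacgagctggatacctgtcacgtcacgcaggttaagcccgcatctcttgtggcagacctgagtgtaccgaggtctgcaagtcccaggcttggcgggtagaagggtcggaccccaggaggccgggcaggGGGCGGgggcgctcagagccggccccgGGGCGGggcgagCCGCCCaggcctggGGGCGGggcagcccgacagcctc
Notch4 (chr17:34564045-34564294, plus strand): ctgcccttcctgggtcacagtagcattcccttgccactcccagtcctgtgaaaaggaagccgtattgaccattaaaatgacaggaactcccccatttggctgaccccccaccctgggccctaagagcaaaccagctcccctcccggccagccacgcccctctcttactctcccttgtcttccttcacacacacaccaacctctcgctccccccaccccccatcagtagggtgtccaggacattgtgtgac
The GC box occurred 5 times in the Notch1 window, 5 times in the Notch2 window, 4 times in the Notch3 window and 0 times in the Notch4 window. GC content was 66% for Notch1, 72% for Notch2, 68.8% for Notch3 and 58.4% for Notch4, against a median of 52% over 27025 promoters of the same length. Promoters were matched for 7 of the 10 members, of which 5 held the GC box, as did 32.9% of all promoters. All 250 bases of the Jag2 window and 124 bases of the Jag1 window lie in GENCODE exons of these genes, so these windows are not all upstream sequence. The core of the RBPJ motif, TGGGAA on either strand, was in 0 of the 7 windows and in 21.5% of all promoters. These are descriptions of letters in a short window and carry no statement on binding.

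The first comparison asked how the pathway genes differed between the KO and WT labels. The receptor Notch1, the ligands Jag1 and Dll4, the receptor Notch3 and the target Heyl were each higher in the libraries labelled KO, by between 1.65-fold and 2.43-fold. The ligand Jag2 and the target Hes1 did not pass the test. Of 14859 genes tested by limma with Benjamini-Hochberg adjustment, 27.6% had an adjusted p under 0.05 (12.3% higher and 15.3% lower in the libraries labelled KO), and 5 of the 10 members did, 5 higher and 0 lower. With a log2 fold change of at least 1 also required, 2 members were called, Jag1 and Dll4, against a background of 5.43% of genes called higher by that rule. The 4 libraries labelled KO all lay above the 4 labelled WT for 4 members (Notch1, Notch2, Jag1 and Heyl) and for 13.3% of all genes. The median log2 fold change of the 10 members was 0.74 and that of all genes tested was 0.02.

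Among the receptors, Notch1 (ENSMUSG00000026923, GRCm38 chr2:26457903-26516663, minus strand) is the receptor that endothelial and satellite cells use in many settings. It had normalised read counts of 239, 189, 390 and 229 in the libraries labelled WT and of 512, 501, 471 and 443 in those labelled KO. All 4 libraries labelled KO lay above all 4 labelled WT, of which WT 3 was the highest. Means were 262 ± 88.3 and 482 ± 31.2 (SD, n = 4 each), a log2 fold change of 0.93 (SE 0.21, adjusted p = 0.0114 by limma). Notch3 (ENSMUSG00000038146, chr17:32120820-32166852, minus strand), the receptor of pericytes and vascular smooth muscle, had 570, 387, 835 and 420 in the libraries labelled WT and 842, 918, 769 and 958 in those labelled KO. The groups overlapped through WT 3, whose count was above that of KO 3. The log2 fold change was 0.72 (SE 0.23, adjusted p = 0.0397 by limma). This call was lost by edgeR (adjusted p = 0.0565) and with the length correction (0.53, adjusted p = 0.0676, limma).

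Notch2 (ENSMUSG00000027878, chr3:98013527-98150361, plus strand) and Notch4 (ENSMUSG00000015468, chr17:34564268-34588503, plus strand) are the other two receptors, the latter largely restricted to endothelium. Notch2 counts were 242, 237, 172 and 242 in the libraries labelled WT and 367, 292, 311 and 271 in those labelled KO. These ranges did not overlap, and for Notch2, unlike Notch1 and Notch3, WT 3 was the lowest library of its group. The log2 fold change of 0.48 (SE 0.17, 95% interval 0.11 to 0.85) had an adjusted p of 0.0552 by limma, just outside the threshold. Alternatives fell on both sides of it, with 0.0345 by DESeq2, 0.0618 by edgeR and 0.0192 after the GC correction, and the length correction took the log2 fold change to 0.24 (adjusted p = 0.349, limma). Notch4 counts were 199, 187, 300 and 138 against 222, 294, 339 and 278. They overlapped, again through WT 3, and the log2 fold change of 0.50 had a 95% interval of -0.02 to 1.02 (adjusted p = 0.133, limma). With a correction for GC content, for which Notch4 is at percentile 98.2 of all genes, it was 0.98 (adjusted p = 0.0210, limma), and with a correction for length 0.31.

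Among the ligands, Jag1 (ENSMUSG00000027276, chr2:137081456-137116644, minus strand), expressed by endothelial and smooth muscle cells, showed the highest log2 fold change of the set in this comparison. Its counts were 111, 67.0, 212 and 91.7 in the libraries labelled WT and 314, 262, 234 and 270 in those labelled KO. No library labelled KO was as low as WT 3, the highest of the WT group. The log2 fold change was 1.28 (SE 0.31, adjusted p = 0.0143, limma). Dll4 (ENSMUSG00000027314, chr2:119325784-119335962, plus strand), the Delta-like ligand of arterial and sprouting endothelium, had 50.7, 81.9, 158 and 59.5 against 142, 188, 178 and 191. WT 3 exceeded KO 1, so the groups overlapped by that library. Its log2 fold change was 1.13 (SE 0.32, adjusted p = 0.0278, limma). Jag2 (ENSMUSG00000002799, chr12:112907819-112929776, minus strand) had 766, 909, 886 and 657 in the libraries labelled WT and 514, 826, 774 and 978 in those labelled KO. The groups overlapped over most of their range, and the log2 fold change of -0.08 had a 95% interval of -0.53 to 0.36 (adjusted p = 0.773, limma).

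The targets are basic helix-loop-helix repressors. Heyl (ENSMUSG00000032744, chr4:123233556-123249875, plus strand), typical of mural cells and also of satellite cells, had 131, 139, 218 and 190 in the libraries labelled WT and 369, 275, 237 and 255 in those labelled KO. These ranges did not overlap, and the log2 fold change was 0.75 (SE 0.21, adjusted p = 0.0271, limma). The call of Heyl was lost with all 12 libraries in one fit (adjusted p = 0.0508, limma). Hey1 (ENSMUSG00000040289, chr3:8663359-8667256, minus strand), a target in arterial endothelium and satellite cells, had 41.6, 37.2, 102 and 34.1 against 87.0, 167, 51.1 and 97.3. WT 3 was far above the other libraries of its group, and 3 of the 4 libraries labelled KO were below it. The log2 fold change of 0.92 was near that of Notch1 but had a standard error of 0.42 against 0.21, with a 95% interval of -0.011 to 1.85 and an adjusted p of 0.122 (limma). Hes1 (ENSMUSG00000022528, chr16:30064384-30067796, plus strand), a target in many cell types, had 384, 388, 304 and 875 against 425, 502, 876 and 406. A single library in each group, WT 4 and KO 3, lay well above the others, and the log2 fold change of 0.23 had a 95% interval of -0.53 to 0.99 (adjusted p = 0.626, limma).

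**Figure D1:**
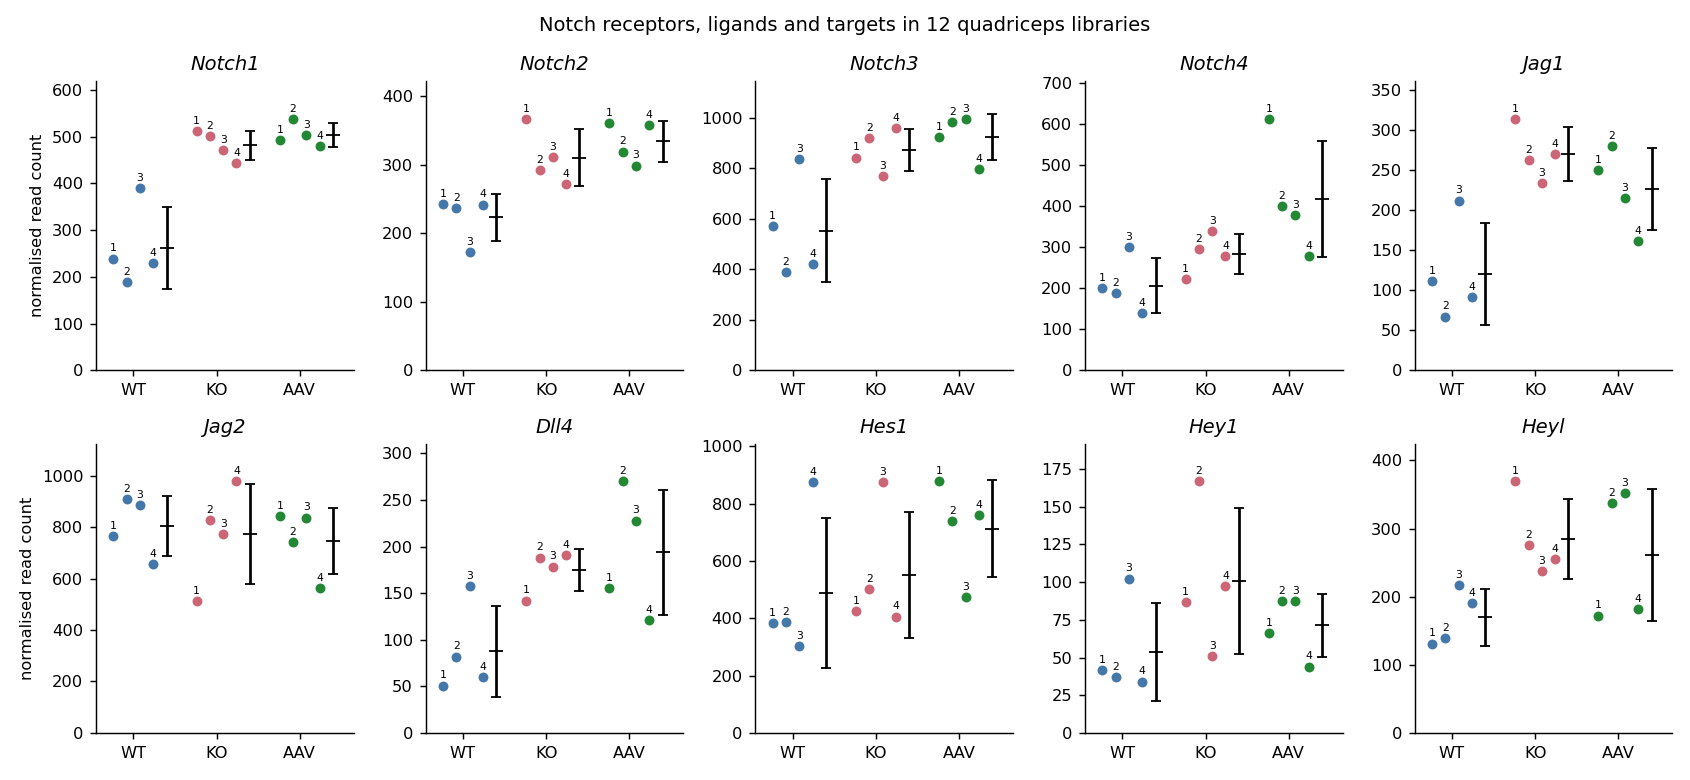
Normalised read count (vertical axis, reads divided by the size factor, linear from 0) of each member in the 4 libraries labelled WT, KO and AAV, with the animal number beside each point and the mean ± SD of 4 animals as a black bar. The libraries labelled KO and AAV lie above those labelled WT for Notch1 and Notch2 with no overlap, WT 3 is the highest WT library for 7 of the 10 genes, and Jag2 shows no separation.

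The calls between the libraries labelled KO and WT depended on single animals. When each animal was left out in turn, between 2 and 7 of the 10 members were called, and between 15.9% and 48.4% of all genes. Notch1 and Jag1 were called in 8 of the 8 fits, Heyl in 3, Dll4 in 2 and Notch3 in 1. Without WT 2, the library with high Gaa, 2 members were called, Notch1 and Jag1, where 17.9% of all genes were called. Without WT 3, the count rose to 7, with Notch4 (log2 fold change 0.70, adjusted p = 0.0113, limma) and Hey1 (1.28, adjusted p = 0.0107, limma) added, while the share of all genes called rose to 48.4%. WT 3 was the highest of its group for 7 of the 10 members and for 34.7% of all genes tested.

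The second comparison asked whether the members differed between the AAV and KO labels. No member passed: 0 of 10 had an adjusted p under 0.05 by limma, where 26.3% of 14894 genes did, and 0 had an unadjusted p under 0.05, where 41.1% did. DESeq2 and edgeR on the recovered reads also called 0 members, where they called 32.1% and 27.0% of all genes. The median log2 fold change of the members was 0.07 and that of all genes 0.04. Scaling by total reads moved the median of all genes to 0.21 and the share of called genes that were higher in the libraries labelled AAV from 48.9% to 65.4%, so small directions here depend on the scaling.

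The receptors Notch1, Notch2 and Notch3 gave the narrowest intervals. Notch1 counts in the libraries labelled AAV were 493, 539, 504 and 480, all within or just above the KO range, and its log2 difference of 0.07 had a 95% interval of -0.17 to 0.30. Notch3 counts were 922, 982, 996 and 795, with a difference of 0.08 (interval -0.18 to 0.34). Notch2 counts were 361, 319, 299 and 358, with a difference of 0.11 (interval -0.19 to 0.41). For these 3 receptors a correction for GC content turned the sign of the difference without a call, to between -0.24 and -0.04. Notch4 came closest to the threshold, with counts of 612, 399, 377 and 277. AAV 1 stood well above the other libraries and AAV 4 was level with KO 4. Its log2 difference was 0.51 (SE 0.23, interval -0.00053 to 1.02, adjusted p = 0.122, limma), and without AAV 4 it was 0.68 with an adjusted p of 0.0398 by limma. Without AAV 1 it was 0.30 (adjusted p = 0.276, limma), and with the GC correction 0.14 (adjusted p = 0.617, limma).

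The ligands and targets had wider intervals. Jag1 counts in the libraries labelled AAV were 250, 280, 215 and 162, a log2 difference of -0.27 from KO (interval -0.68 to 0.13). Dll4 counts were 156, 270, 228 and 121, a difference of 0.09 (interval -0.46 to 0.63) whose sign turned when KO 1, AAV 2 or AAV 3 was left out and under the GC correction. Jag2 counts were 842, 743, 837 and 564, a difference of -0.03 (interval -0.48 to 0.42). The AAV 4 library had the lowest count of its group for Jag1, Jag2 and Dll4. Hes1 counts were 878, 739, 475 and 760, a difference of 0.41 (interval -0.18 to 0.99). Hey1 counts were 66.2, 87.6, 87.4 and 44.0, a difference of -0.42 (interval -1.20 to 0.37). Heyl counts were 172, 337, 352 and 182, a pair of high and a pair of low libraries, and the difference was -0.18 (interval -0.76 to 0.40).

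The third comparison set the libraries labelled AAV against those labelled WT. It shares the WT libraries with the first comparison and the AAV libraries with the second, so its values are no independent support for either. In this comparison 1.29% of 14939 genes were called by limma and 0 of the 10 members were, but 6 members had an unadjusted p under 0.05 (18.2% of all genes did), Notch1, Notch2, Notch3, Notch4, Jag1 and Dll4. DESeq2 called 3 members (Notch1, Notch2 and Notch4) and 6.37% of all genes, and edgeR 0 members and 1.09%. Limma with all 12 libraries in one fit called 5 members (Notch1, Notch2, Notch3, Notch4 and Dll4) and 6.03% of all genes. Without WT 3, limma called 5 members, Notch1, Notch3, Notch4, Jag1 and Dll4, where 2.97% of all genes were called. Without WT 2 and AAV 4 together, 0 members and 0.068% of all genes were called.

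The sizes stood near those of the first comparison for most members. The log2 fold change was 0.99 for Notch1 (SE 0.22, adjusted p = 0.0582, limma), and all 4 libraries labelled AAV lay above all 4 labelled WT, as they did for Notch2 (0.59, SE 0.17, adjusted p = 0.124). Those 2 were the members without overlap, against 6.69% of all genes. Notch3 was at 0.80 (SE 0.23) and Notch4 at 1.01 (SE 0.29). Among the ligands Dll4 was at 1.21 (SE 0.38), Jag1 at 1.01 (SE 0.34) and Jag2 at -0.11 (SE 0.18). The targets had log2 fold changes of 0.64 for Hes1, 0.57 for Heyl and 0.50 for Hey1, each with a 95% interval that included 0. Scaling by total reads moved the median of all genes from -0.03 to 0.12 and the share of called genes that were higher in the libraries labelled AAV from 73.6% to 89.0%, and 2 members were then called, Notch1 and Notch3, with 2.12% of all genes.

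**Figure D2:**
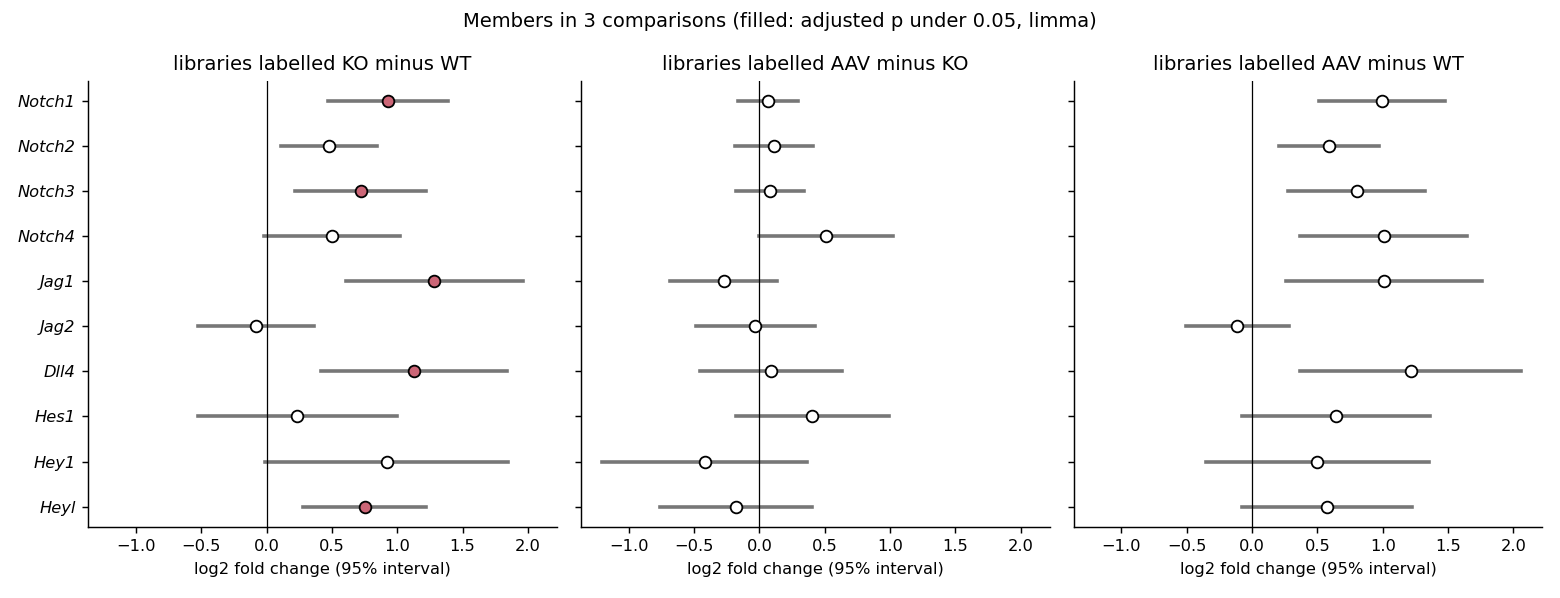
Log2 fold change of each member (horizontal axis, points with 95% intervals from limma on log2 of the normalised read count plus 1) in the 3 comparisons of libraries by label. Filled points, 5 in the first panel and 0 in the other two, had an adjusted p under 0.05, and the points of the AAV minus KO panel lie between -0.42 and 0.51.

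Levels of different genes were compared per kilobase of annotated exon. In the libraries labelled WT, Hes1 stood highest at 239 ± 128 normalised reads per kb (SD, n = 4), above Jag2 at 115 ± 16.7 and Notch3 at 68.4 ± 25.2, and Hey1 was lowest at 16.5 ± 9.94. Hes1 and Jag2 did not overlap, Jag2 and Notch3 did, and from Heyl (33.2 ± 8.08) downwards each gene overlapped with the next. In the libraries labelled KO, the same 3 genes led, Hes1 at 271 ± 108, Jag2 at 111 ± 27.7 and Notch3 at 108 ± 10.4. Jag1 held place 8 in the libraries labelled WT, at 20.7 ± 10.9, and place 5 in those labelled KO, at 46.3 ± 5.69. From Heyl (55.6 ± 11.5) downwards neighbours in the order again overlapped. In the libraries labelled AAV, Hes1 was at 350 ± 83.5, Notch3 at 114 ± 11.3 and Jag2 at 107 ± 18.6, and Notch4, at 51.6 ± 17.5, was the second of the receptors. At the low end of this group Notch1, Notch2 and Hey1 did not overlap with each other. Jag2 was the most abundant ligand per length in all 3 groups, with no overlap with Jag1 or Dll4. The lengths are unions of all annotated exons, 14232 bases for Notch1 and 2037 for Hes1, so a gene that uses few of its exons is understated on this scale.

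**Figure D3:**
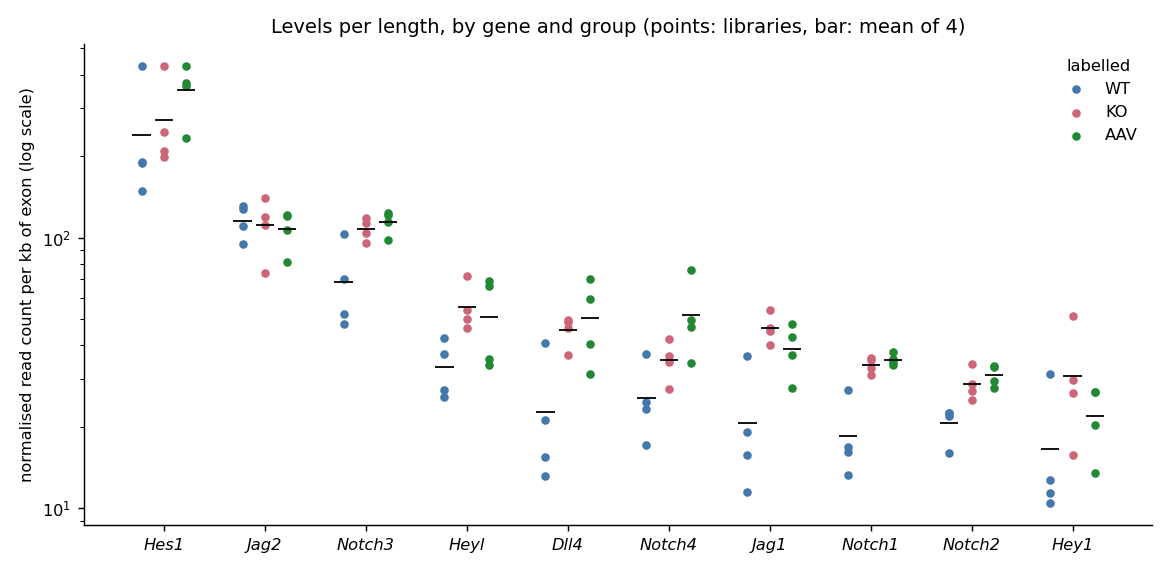
Normalised read count per kb of annotated exon (vertical axis, log scale) for each member, ordered by its mean over the 3 groups, with 1 point per library and a bar at the mean of 4. Hes1 leads in all 3 groups and Jag2 and Notch3 follow, and the other 7 genes have lower means.

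Of 69 other genes of the pathway listed by role, 61 were in the tables. Between the libraries labelled KO and WT, 6 of the 61 were called higher and 5 lower by limma, where 27.6% of all genes were called, with a median log2 fold change of 0.11. Without WT 2, 4 were called higher (Dlk1, Egfl7, Nrarp and Numb) and 3 lower (Hes6, Maml3 and Tle1), where 17.9% of all genes were called. Of 10 cleavage genes 0 were called, including Adam10, the protease of the first cut (log2 fold change 0.28, SE 0.16, adjusted p = 0.218). Of the 5 glycosylation genes 0 were called. The DNA-binding partner Rbpj was at 0.38 (SE 0.21) and the coactivator Maml1 at 0.12 (SE 0.17), neither of them called.

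The genes called higher in the libraries labelled KO had diverse roles. Dlk1, a non-canonical ligand, had counts of 11.8, 8.5, 24.3 and 5.9 in the libraries labelled WT and between 32.5 and 43.3 in those labelled KO (log2 fold change 1.75, SE 0.39, adjusted p = 0.0114, limma). Nrarp, a target that promotes turnover of the receptor's intracellular domain, had 79.6, 92.5, 99.0 and 95.6 against 202, 216, 132 and 180 (0.96, SE 0.19, adjusted p = 0.00726, limma). The groups did not overlap for either gene, and Nrarp, unlike most members, varied little among the libraries labelled WT. Mib1, the ligase that activates ligands by ubiquitination, was at 1.37 (adjusted p = 0.0199, limma), Egfl7, a secreted endothelial antagonist, at 1.05 (adjusted p = 0.00594), the corepressor Hdac1 at 1.03 and the receptor antagonist Numb at 0.61.

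Those called lower were Hes6, which counteracts Hes1 (-1.63, SE 0.32, adjusted p = 0.00726, limma), the coactivator Maml3 (-1.03), the Groucho-family corepressors Tle3 (-0.96) and Tle1 (-0.63), and Dtx2 of the Deltex family (-0.75). Hes6 counts were 484, 616, 215 and 646 in the libraries labelled WT, with WT 3 the lowest, and 131, 123, 148 and 184 in those labelled KO. Hes6 is known from myogenic differentiation.

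In the comparison of AAV with KO, 60 of these genes were tested and 14 were called, 8 higher and 6 lower under the AAV label, where 26.3% of all genes were called. Without AAV 4, 3 were called higher and 7 lower, where 22.1% of all genes were, and the calls of Egfl7 and Dtx2 were among those lost. The median over all libraries was 0.01. Mib1 fell by 1.40 on the log2 scale (SE 0.26, adjusted p = 0.00716, limma), from counts between 3608 and 5807 to counts between 1079 and 2523. Hes6 rose by 0.79 (adjusted p = 0.0347) and Tle1 by 0.52 (adjusted p = 0.0147). These 3 genes and Dtx2 (0.51) had the opposite sign and a call between KO and WT, and Egfl7 (0.44, adjusted p = 0.0497) had the same sign and a call. Because this comparison and that of KO with WT share the libraries labelled KO, the signs are given side by side and not as a result. Other genes called lower were the coactivators Ep300 (-0.84) and Kat2b (-0.60), the ubiquitin ligases Nedd4 (-0.85) and Itch (-0.56), and the endocytic kinase Aak1. Others called higher were the ligase Neurl3 (1.20), the corepressor Cir1 (0.72), Dtx3 (0.62) and the demethylase Kdm5a (0.57). Between the libraries labelled AAV and WT, 1 gene of the 61 was called, Egfl7, with counts of 381, 518, 581 and 677 in the libraries labelled WT and 1291, 1656, 1598 and 1448 in those labelled AAV (log2 fold change 1.50, SE 0.19, adjusted p = 0.00973, limma). Without WT 2 and AAV 4, 0 of the 61 were called.

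**Figure D4:**
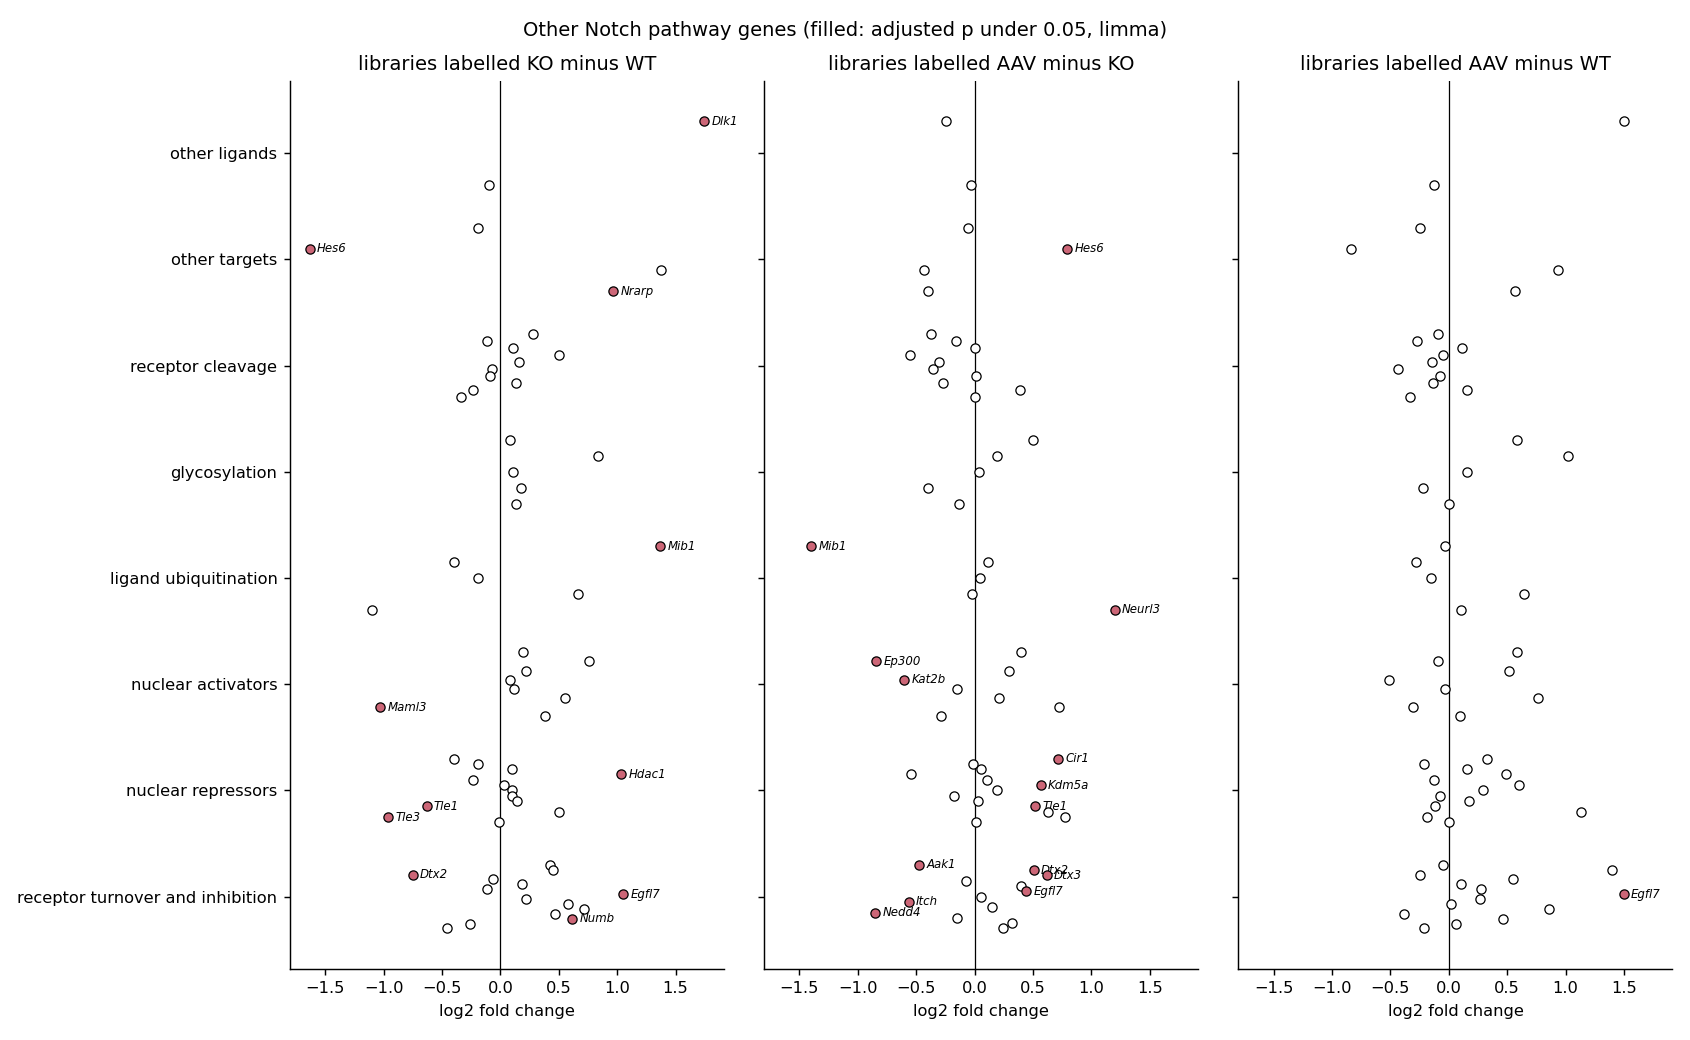
Log2 fold change (horizontal axis, limma) of the other Notch pathway genes in 8 role lists (rows) in the 3 comparisons of libraries by label, each point a gene. Filled and named points had an adjusted p under 0.05: 11 in the first panel, 14 in the second and 1, Egfl7, in the third.

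Some markers of blood vessel cells were called between the KO and WT labels as well. Of 10 endothelial markers, 6 were called higher in the libraries labelled KO than WT by limma (Pecam1, Cdh5, Flt1, Tie1, Esam and Egfl7) and 0 lower. Of all genes tested, 12.3% were called higher and 15.3% lower. The median log2 fold change of the 10 markers was 0.92. Without WT 2, 4 of them were called higher (Flt1, Tie1, Esam and Egfl7), where 17.9% of all genes were called. The summed count of the 10 markers was 5162, 3692, 8368 and 4425 in the libraries labelled WT, between 8179 and 10497 in those labelled KO and between 7981 and 12815 in those labelled AAV. WT 3 was the highest library of its group here too. Of 8 mural markers, 4 were called higher (Rgs5, Myh11, Kcnj8 and Abcc9) and 1 lower (Cspg4), and without WT 2 only Abcc9 was called higher and Cspg4 lower. The mural sum ranged from 9443 to 17802 in the libraries labelled WT, from 20304 to 22451 in those labelled KO and from 12803 to 20256 in those labelled AAV. Rgs5 and Abcc9 had the highest mean counts of the list under the KO label, 7510 and 7065, where the mean sum was 21512. Under the AAV label these means were 5131, 4403 and 16566. Whether Abcc9 reads came only from mural cells was not tested. Between AAV and KO, where 26.3% of all genes were called, Abcc9 was called lower (-0.69, adjusted p = 0.00774, limma) and Cspg4 and Egfl7 higher. The median log2 fold change was -0.35 for the mural markers, 0.12 for the endothelial markers and 0.07 for the members. Without AAV 4, where 22.1% of all genes were called, both mural calls remained, with a mural median of -0.20. The endothelial markers then called higher were Esam and Flt1. Between AAV and WT, where 1.29% of all genes were called, Esam, Egfl7 and the mural marker Pdgfrb were called higher. Without WT 2 and AAV 4, no endothelial or mural marker was called (0 of 10 and 0 of 8), where 0.068% of all genes were called. The 4 arterial endothelial markers that are not members (Gja4, Gja5, Efnb2 and Sox17) summed to between 170 and 523, 475 and 535, and 361 and 658 in the same order. The endothelial markers that define the cell type, Pecam1, Cdh5 and Tie1, were detected in every library.

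Set against those sums, the members differed from each other. Notch1 amounted to 4.90 ± 0.29% of the endothelial marker sum in the libraries labelled WT, 5.09 ± 0.26% in those labelled KO and 4.98 ± 0.77% in those labelled AAV (SD, n = 4 each), so the mean share differed by less than the spread within groups. Dll4 was at 1.61 ± 0.55%, 1.87 ± 0.38% and 1.83 ± 0.32%, again within the spread. Jag1 was at 2.14 ± 0.30%, 2.86 ± 0.41% and 2.18 ± 0.26%, with WT 3 above 2 of the libraries labelled KO. Notch3 was at 4.26 ± 0.37% of the mural sum in the libraries labelled WT, 4.06 ± 0.38% in those labelled KO and 5.66 ± 0.63% in those labelled AAV, where each library was above each of those labelled WT and KO. Of the endothelial sum, Notch3 amounted to 10.3 ± 0.66%, 9.28 ± 1.64% and 9.05 ± 0.99%. The mural share under the AAV label was also above every library labelled WT and KO for Notch1 (means of 2.05%, 2.24% and 3.11%), Notch4 (1.61%, 1.33% and 2.57%) and Dll4 (0.68%, 0.82% and 1.14%), so this is not particular to Notch3. Heyl was at 1.39 ± 0.46%, 1.31 ± 0.22% and 1.54 ± 0.34% of the mural sum and at 3.30 ± 0.87%, 2.99 ± 0.52% and 2.48 ± 0.62% of the endothelial sum. The other members' shares of the endothelial sum varied more within groups, relative to their means, than that of Notch1 did in the libraries labelled WT and KO. Jag2 was at 16.2 ± 5.94%, 8.32 ± 2.81% and 7.30 ± 1.18%, Hes1 at 10.3 ± 6.89%, 5.85 ± 2.40% and 7.16 ± 2.49%, and Notch2 at 4.66 ± 1.87%, 3.28 ± 0.36% and 3.35 ± 0.91%. Notch4 was at 3.91 ± 0.83%, 3.02 ± 0.64% and 4.08 ± 1.46%, and Hey1 at 0.95 ± 0.21%, 1.05 ± 0.45% and 0.68 ± 0.10%. These ratios were formed after the values were seen, have no test, and rest on marker lists chosen by name. The part of vessel cell content in the results was not tested.

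**Figure D5:**
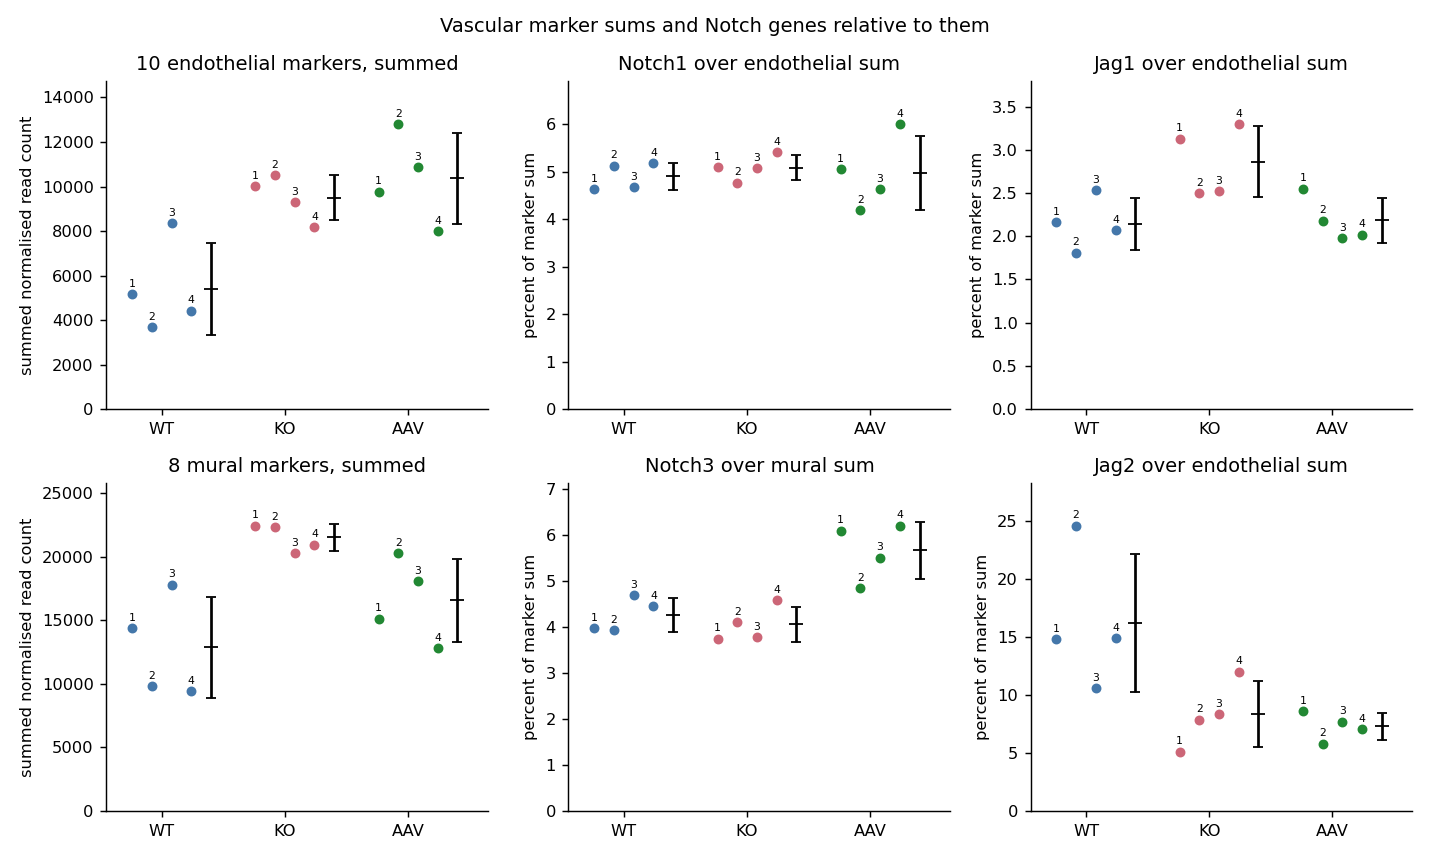
Left, summed normalised read count of 10 endothelial and 8 mural markers per library (vertical axes from 0). Centre and right, Notch1, Jag1 and Jag2 as a percent of the endothelial sum and Notch3 as a percent of the mural sum, with animal numbers, and black bars for the mean ± SD of 4. Notch1 stays near 5% of the endothelial sum in all 3 groups, and the mean share of Jag2 runs from 7.30% to 16.2%.

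Other cell type lists are given beside the share of all genes called between the KO and WT labels, 12.3% higher and 15.3% lower. The lists are short, and none was tested against that share. Between the libraries labelled KO and WT, 1 of 7 satellite cell markers was called lower (Sdc4) and 0 higher, with sums from 2074 to 3334 in the libraries labelled WT and from 1871 to 2232 in those labelled KO. Of 6 fibroblast markers, 5 Schwann cell markers and 4 adipocyte markers, 0 were called, with median log2 fold changes of -0.36, 0.62 and 1.40. Of the 5 macrophage and leukocyte markers in the tables, 3 were called lower in the libraries labelled KO (Cd68, Lyz2 and C1qa), with sums of 3458, 3332, 1107 and 3880 in those labelled WT and from 559 to 1049 in those labelled KO. Myofibre genes were present in every library, with sums of 8 markers from 3482750 to 6160622, and Myh4 was called higher and Myh1, Myh2 and Myh7 lower in the libraries labelled KO. Of 7 immediate early genes, which respond to handling and stress, 5 were called lower in the libraries labelled KO (Jun, Junb, Egr1, Ier2 and Atf3), with sums from 7073 to 14322 in those labelled WT and from 3148 to 4578 in those labelled KO. Without WT 2, where 17.9% of all genes were called, the 3 leukocyte calls remained. Those of Sdc4, Myh4, Myh2, Myh7, Jun and Atf3 were lost, and Myh1, Junb, Egr1 and Ier2 were still called lower. The part of these lists in the members' values was not tested.

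The genes whose log2 levels followed each member most closely over the 12 libraries were sought among 11071 genes with a mean count of at least 50. For Notch1 they were Nynrin (Pearson r = 0.98) and Fgd5 (0.97), an endothelial exchange factor, and for Notch3 Robo4 (0.96), an endothelial guidance receptor, and Fgd5 (0.95). For Jag1 one of them was Ptprb (0.97), the endothelial receptor phosphatase, and for Notch4 they were Metap1d (0.96) and Sox17 (0.96), an arterial transcription factor that is also on the arterial list. Dll4 was followed by Rgs3 (0.96) and Ltbp4 (0.95), Heyl by Plxdc1 (0.92) and Selrc1 (0.92), and Hey1 by Gosr1 (0.91) and Plekhb1 (0.91). Jag2 was followed by Nr1h2 (0.92) and Scaf1 (0.92), Notch2 by Dusp11 (0.95) and Slc2a4rg-ps (0.95), and Hes1 by Rab34 (0.91) and P2rx7 (0.91). The 12 libraries share group, depth and the WT 3 pattern, so the r is a ranking measure and carries no p.

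Annotation limits bear on 4 of the members. Exons of Notch1 share 1068 bases with the antisense gene 0610009E02Rik (mean normalised read count 12.8), and exons of Dll4 share 214 bases with the antisense gene Gm14207 (mean 12.9). Whether counting used strand is not given in the sources used here, so reads from these pairs cannot be told apart, but the antisense counts were small beside those of Notch1 and Dll4. Exons of Notch1 also share 414 bases with Gm13568 and those of Notch3 488 bases with Gm17276, both antisense, and exons of Notch2 share 541 bases with Gm42820 on the same strand. These 3 genes have no values in the tables used here.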

How the data were processed

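RNA-Seq of quadriceps from 12 mice was analysed. To make the signal values, the authors trimmed reads (Trim Galore 0.4.1, per the submitters' processing notes), mapped them to GRCm38 with STAR, kept uniquely mapped reads, counted them per gene with HTSeq 0.6.1, kept genes with at least 10 reads in a library, and divided counts by DESeq2 (1.16.1) size factors. The smaller deposited signal values, to which the check was limited, were whole multiples of 1 step per library within 0.01. Larger values were rounded to whole reads with the same step and were not checked in this way. The step of AAV 2 was 1.01, so near 1 that this check is weaker for that library, and DESeq2 and edgeR results rest on these reads. The authors' deposited log2 fold change, score, p-value and adjusted p-value columns were not used. The 2 tables were joined through the libraries labelled KO, whose values differed by 0. There were 0 per-sample columns that could not be mapped.

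Groups were compared with limma (3.58.1, R 4.3.3) with a trend on log2(value + 1), using genes that reached a value of 10 in 1 or more of the 8 libraries of a comparison. P-values were adjusted over all these genes by the Benjamini-Hochberg method, and an adjusted p under 0.05 was a call. The 1 added understates the fold change of low genes. The unit called for limma in place of a count test, and edgeR (4.0.16) and DESeq2 (1.42.0) on recovered reads were alternatives. On data simulated with the same dispersion for every gene and group, limma recovered 97 of 100 genes changed by a log2 of 1 in the KO and WT design, 94 in AAV and KO and 89 in AAV and WT, with 7, 9 and 7 false calls. At about this size in AAV minus WT, Notch4 and Jag1 (1.01 each) were not called, so the members' own power is not given by these shares. The members' spread was not alike in the groups. The SD of Jag1 was 52.8% of its mean under the WT label and 12.3% under the KO label. Other alternatives were total-read scaling, a pseudocount of 0.1, other filters, all 12 libraries in one fit, a block for the replicate number, leaving out animals (for the gene lists, WT 2 and AAV 4, chosen after seeing the data), and loess corrections for GC content and length. Coordinates and lengths are from GENCODE M21 (GRCm38), and promoters from RefSeq. Tables and figures were made with Python 3.11.15.

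Named genes were the 10 members, Gaa, other pathway genes called with a log2 fold change of at least 0.5 in any comparison, core pathway genes (Rbpj, Maml1, Numb, Adam10 and Egfl7), the 2 genes most like each member, and cell type markers. Some genes that this rule names are not reported here. Aak1 was named after its values were seen. The members and lists were chosen with earlier results of these data known. The labels name separate animals, and no technical replicates were analysed here.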

Additional observations from a re-analysis of the deposited data

Results flagged for a closer look

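Of 30 groups of 4 values (10 members in 3 groups), 3 held a library far from the other 3 by Dixon's test, all of them among the libraries labelled WT. Chance flags about 1 in 20 such groups. The Notch2 count of 172.1 in WT 3 lay below the other 3 libraries of its group. The Hey1 count of 102.3 in WT 3 lay above the others, and the Hes1 count of 874.8 in WT 4 lay above the others. The Hey1 log2 fold change of KO over WT, by label, was 0.92 with WT 3 and 1.28 without it.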

How the results depend on the processing

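Between the libraries labelled KO and WT, 5 members were called, and between 4 and 7 under total-read scaling, DESeq2, edgeR, the other pseudocount and filters, the fit of 12 libraries and the corrections for GC content and length, where 25.4% to 32.7% of all genes were. With the replicate number as a block 3 were called, where 20.6% of all genes were, and Notch3 (adjusted p = 0.0733, limma) and Heyl (0.069) lost their call. The numbers gave no clear pairing of the animals: same-number correlations of deviations ran from -0.475 to 0.647, and in 4 of 12 matches of a sample to another group (the AAV samples were matched to both others) it correlated best with its own number. Such correlations cannot show whether litter, cage or batch linked animals. Leaving out 1 animal gave from 2 to 7 called members in this comparison, from 0 to 1 between AAV and KO, and from 0 to 5 between AAV and WT. In the latter, where 0 were called, total reads gave 2, DESeq2 3 and the fit of 12 libraries 5, and the cause was not tested.

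Signs turned only for values that were not called. With the GC correction, Jag2 in KO minus WT became 0.36, and in AAV minus KO Notch1 became -0.15, Notch2 -0.038, Notch3 -0.24 and Dll4 -0.12. Jag2 in AAV minus KO became 0.14 with total reads and 0.066 with the length correction. Jag2 in AAV minus WT became 0.038 with total reads and 0.077 without WT 2 and AAV 4. With 1 animal left out, Jag2 ranged from -0.21 to 0.10 and Hes1 from -0.011 to 0.56 in KO minus WT, Jag2 from -0.21 to 0.10 and Dll4 from -0.094 to 0.29 in AAV minus KO, and Jag2 from -0.21 to 0.015 in AAV minus WT. Leaving out both libraries whose Gaa stands apart equals leaving out WT 2 or AAV 4 alone in the other two comparisons.

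Counts over all genes also moved. In KO minus WT, 4097 became between 2353 and 7163 with 1 animal left out. In AAV minus KO, 3910 became 2179 under the block and between 1961 and 5071 with 1 animal left out. In AAV minus WT, 193 became 951 with DESeq2, 901 with 12 libraries, 318 with total reads, 294 and 125 with the GC and length corrections, 10 without WT 2 and AAV 4, and between 18 and 442 with 1 animal left out. Depth limits Hey1 and Dll4 most, with as few as 35 and 56 reads.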

Other observations

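The AAV 4 library, whose Gaa count was high for its group, had the lowest count of its group for 7 of the 10 members (Notch1, Notch3, Notch4, Jag1, Jag2, Dll4 and Hey1) and was the highest for 0. It was the lowest for 31.2% of all genes tested. Its macrophage and leukocyte marker sum was 3429, against 1305, 1102 and 619 in the other libraries labelled AAV, and its mural sum of 12803 was the lowest of its group.

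Mfng, a glycosyltransferase that modifies Notch receptors in endothelium, had a log2 fold change of 0.83 between the libraries labelled KO and WT (adjusted p = 0.0646, limma) and of 1.02 between those labelled AAV and WT (adjusted p = 0.0926, limma). It passed the threshold in neither comparison, and it was named after its values were seen. Hey2, a relative of Hey1, had counts of 15.0 or less in every library.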
